A study of Mus musculus with 6 samples.

Results

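Nuclear receptors and the coregulators that bind them were followed in mouse soleus with and without estrogen receptor beta. The group was named by gene symbol and holds 39 genes, 31 receptors and 8 coregulators, out of 8251 genes that the array annotation names through probe sets with exactly 1 symbol. Such probe sets were found for 33 of the 39 genes, 27 receptors with 41 probe sets and 6 coregulators with 6. The other 6 members, Nr3c2, Esrrg, Rarb, Nr1h2, Ncor1 and Ep300, had no such probe set and were not analysed here. Soleus RNA came from 3 samples of male wild-type C57BL/6 mice and 3 samples of male BERKO mice, which lack estrogen receptor beta, the product of Esr2. Neither the strain background and allele of the knockout mice nor the age and treatment of either group is given in the sources used here, and nothing says whether a sample was 1 animal or a pool. P-values therefore measure only the spread between these samples, which may be technical.

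Nuclear receptors are transcription factors that carry a zinc finger domain for DNA and a pocket for small lipophilic ligands such as steroids, thyroid hormone, retinoids, oxysterols and fatty acids. Steroid receptors bind DNA as pairs of themselves, whereas thyroid hormone, retinoic acid, vitamin D, PPAR and LXR receptors pair with a retinoid X receptor. Bound receptors recruit coactivators of the p160 family (Ncoa1, Ncoa2 and Ncoa3), the acetyltransferases Crebbp and Ep300, and PGC-1 alpha (Ppargc1a), or they hold corepressors such as Ncor1 and Nrip1. In oxidative muscle, estrogen-related receptors, PPARs and PGC-1 alpha are known as regulators of mitochondrial and fatty acid genes, and thyroid hormone sets contractile isoforms.

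The measurement was a signal intensity per probe set on a linear scale, with array medians between 36.8 and 40.5 after the authors' scaling of each array to a common level. All 10 genes of the slow muscle list (among them Myh7, Tnnt1 and Mb) lay above the array median on each wild-type array. So did 8 of 9 fast fibre markers, Myh2 being the exception. Replicate 2 of each group shares a title prefix that the other 4 arrays do not have, and what the prefix stands for is not given. Esr2 itself read 2.2, 3.2 and 1.3 in wild type, against 8.4, 3.9 and 6.2 in the knockout, nearly all below the floor of 7.8 (the 20th percentile of all values), so the deletion could not be checked from its own transcript.

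Of the 27 receptor genes on the array, 11 were above the median of all probe sets on each of the 3 wild-type arrays. These were the estrogen-related receptor Esrra, the thyroid hormone receptor Thra, the retinoid X receptors Rxra and Rxrb, the fatty acid receptor Ppara, and the orphan receptors Rora, Nr2c1, Nr2f2, Nr2f6, Nr4a1 and Nr5a1. Another 3 (Rxrg, Nr1h3 and Nr4a2) were above it on 2 of 3 wild-type arrays. The remaining 13 lay below it on all 3: Esr1, Esr2, Pgr, Nr3c1, Esrrb, Thrb, Rara, Rarg, Ppard, Pparg, Vdr, Nr2f1 and Nr6a1. Across the whole array 52.9% of genes were above the median by the same rule. On the knockout arrays 12 receptors passed it: the same 11 and Nr1h3. With the 70th percentile of each array in place of its median, 8 receptors passed, namely Esrra, Thra, Rxra, Rxrb, Ppara, Nr2f6, Nr4a1 and Nr5a1. Probe sets differ in how well they bind, so a reading below the median is not evidence that a receptor is absent, and readings of different genes were not ranked.

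**Figure D1:**
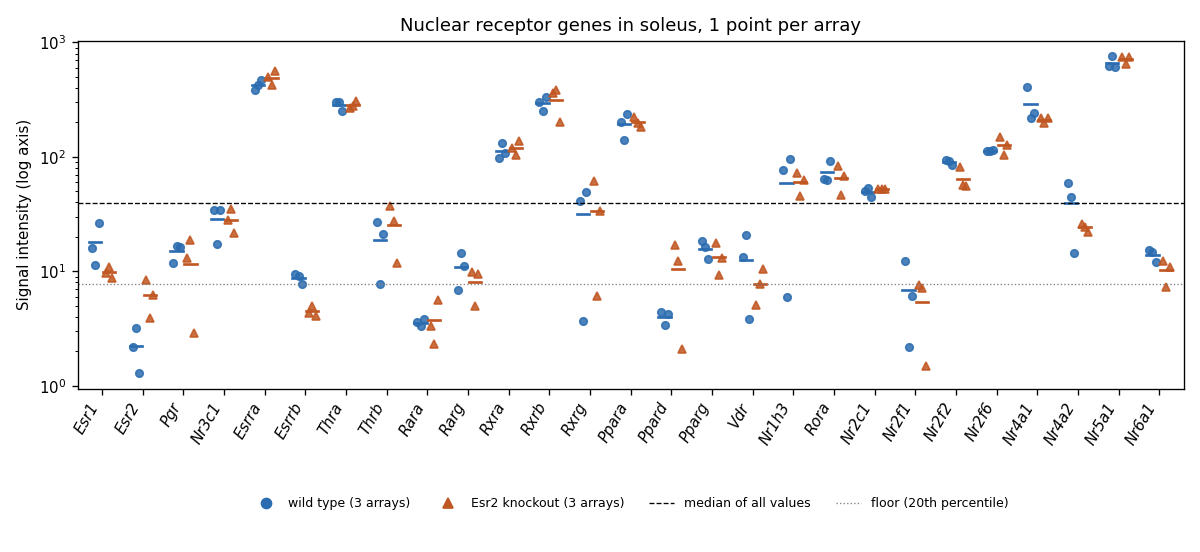
Signal intensity (log axis) of the 27 receptor genes on each array, by the probe set with the highest mean, with circles for wild type, triangles for the Esr2 knockout and short bars for group means (n = 3 each). The dashed line is the median of all values, 39.4, and the dotted line the floor, 7.8; circles and triangles overlap for most genes above the dashed line, and Nr2f2 is a gene where they do not.

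No receptor and no coregulator passed the adjusted threshold between knockout and wild type. The test was run on probe sets with a signal over 39.4, the median of all values, on 3 or more of the 6 arrays, which left 18 probe sets of 13 receptors and 5 probe sets of 5 coregulators. At an adjusted p under 0.05 in limma, 0 of the 18 and 0 of the 5 were called, as were 0 of all 6369 probe sets tested (0%). The adjusted p of the members ran from 0.923 to 0.9996. At an unadjusted p under 0.05 there was 1 receptor probe set (Nr2f2, lower) and no coregulator, beside 5.24% of all probe sets tested in either direction and 2.43% in the lower one. The groups did not overlap for 3 of the 18 receptor probe sets, 2 lower (Nr2f2 and Nr4a1) and 1 higher (a further probe set of Rxra), beside 10.7% of all probe sets in either direction and 5.23% in the lower one. Beside those background shares, counts of 1 and 3 among 18 probe sets are not a result about the receptors. By gene, 9 of 13 receptors were higher and 4 lower, with a median log2 difference of 0.09 beside -0.01 over all 4921 genes tested. Of those 4921 genes, 52.5% were lower in the knockout. The receptor median ran from -0.11, between the replicate 2 arrays, to 0.15, with scaling to a common median. Without wild-type replicate 2 it was -0.065. Thra, at -0.00022, was counted as lower and stood at 0.066 with scaling to a common median. For 20 of the 23 member probe sets the 95% interval of the difference lay within 2-fold either way, and the exceptions were Rxrg, Nr1h3 and a further probe set of Nr5a1.

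**Figure D2:**
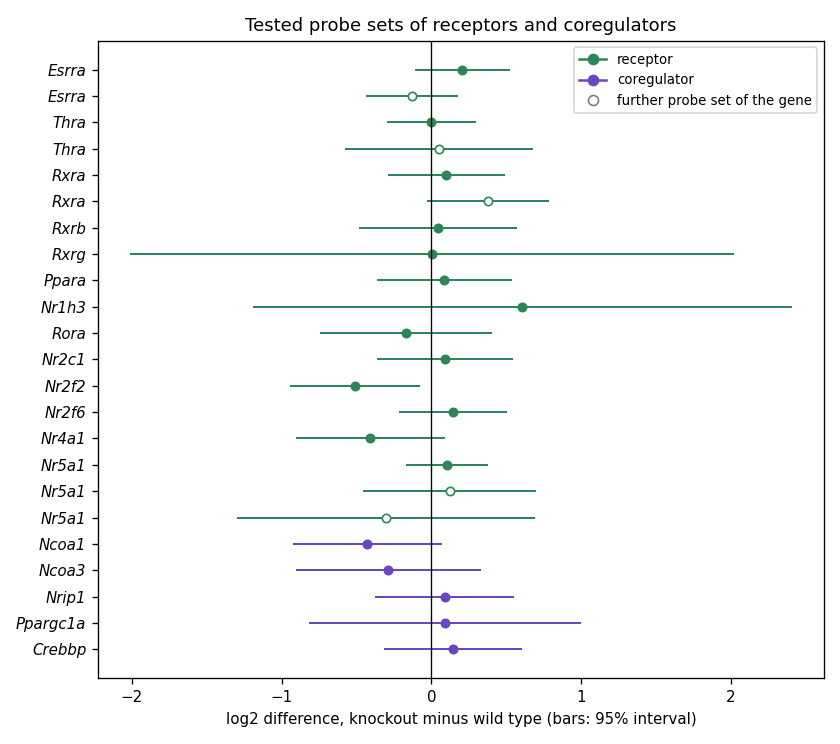
Log2 difference, knockout minus wild type, of the 23 tested probe sets, with 95% intervals from limma (3 arrays per group), receptors in green and coregulators in violet, open points for further probe sets of a gene. The interval of Nr2f2 alone lies entirely on 1 side of 0, before adjustment for the 6369 tests, and those of Rxrg and Nr1h3 are the widest.

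Among the sex steroid and estrogen-related receptors on the array, Esrra was the only member above the array median. Esrra encodes estrogen-related receptor alpha, an orphan receptor that binds no estrogen and works with PGC-1 coactivators on mitochondrial genes. Its main probe set read 382.4, 426.4 and 468 in wild type, against 498, 421.4 and 559.7 in the knockout. The lowest knockout array lay inside the wild-type range, and the difference was 0.21 ± 0.14 (log2, SE; 95% interval -0.10 to 0.52; adjusted p = 0.958). A further Esrra probe set, of a type whose probes can match related sequences, gave -0.13 ± 0.13, so the direction was not shared. Its main difference was 0.32 over the 4 arrays of the larger title prefix (replicates 1 and 3) and -0.017 between the replicate 2 arrays.

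Readings of the classical sex steroid receptors were low. Of the 4 Esr1 probe sets, which detect estrogen receptor alpha, the highest single reading was 26.3 and none was tested. The brightest of them read 16.1, 11.3 and 26.3 in wild type, against 9.7, 10.9 and 8.7 in the knockout, without overlap but near the floor. Pgr, the progesterone receptor and a classical estrogen target, read 11.9, 16.5 and 16.3 against 13, 18.6 and 2.9. Esrrb, the beta estrogen-related receptor, read 9.5, 9.1 and 7.8 against 4.3, 5 and 4.1, so every knockout value was below the floor. Values this low were not taken as a measure of transcript, and no fold is given.

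The glucocorticoid receptor gene Nr3c1 also stayed below the filter, at 34.3, 17.5 and 34.2 in wild type, against 27.8, 34.8 and 21.5 in the knockout. The 2 groups covered almost the same range. Muscle is a known glucocorticoid target tissue, and the reading is that of 1 probe set.

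Thra, the thyroid hormone receptor alpha gene, had the narrowest interval of the tested receptors apart from Nr5a1. It read 300.8, 303.8 and 249.9 in wild type, against 269.8, 277.3 and 305.1 in the knockout. The ranges coincided almost fully, and the fold of knockout over wild type was 1.00, with a 95% interval of 0.819 to 1.22 (adjusted p = 0.9996). A further Thra probe set read 36.9 to 70.7 and differed by 0.05 ± 0.28. In the RefSeq table the gene of another receptor, Nr1d1, overlaps Thra, as Trmt112 overlaps Esrra and Acp2 overlaps Nr1h3, and which strand each probe set reads was not examined here. Thrb, the beta receptor gene, read 7.7 to 37.5 over the 6 arrays and was not tested.

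Retinoid X receptors are the shared partners of the thyroid hormone, retinoid, PPAR and LXR receptors. Rxra read 97.2, 132.5 and 107.8 in wild type, against 120.6, 103.4 and 137.3 in the knockout, with groups that overlapped (0.10 ± 0.17; adjusted p = 0.984). A further probe set designed on the same sequence record read 67.4, 55.7 and 67.9 against 87.6, 70.8 and 90.1. Here every knockout array was above every wild-type array, at a fold of 1.30 (95% interval 0.985 to 1.71; unadjusted p = 0.061, adjusted p = 0.923). The main Rxra probe set differed by 0.33 over the 4 arrays of the larger title prefix and by -0.36 between the replicate 2 arrays, whereas the further one gave 0.39 and 0.35.

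Rxrb read 301.3, 253.5 and 334.5 in wild type, against 358.9, 383.5 and 203.2 in the knockout. Knockout replicate 3 was the lowest of the 6 arrays and knockout replicate 2 the highest, and the groups overlapped (0.04 ± 0.23). Rxrg, the form known from skeletal muscle and brain, read 41.5, 3.7 and 49.5 in wild type, against 61, 6.1 and 33.9 in the knockout. Both replicate 2 arrays were below the floor while the other 4 were between 33.9 and 61, and the log2 difference of 0.0032 had a 95% interval from -2.01 to 2.01. What the replicate 2 arrays share beyond their title prefix is not given, and its part in this reading was not tested.

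Among the 15 tested members with a window, Rxra and Rxrg were the only ones whose RefSeq promoter window held the half-site that many receptors of the family recognise, AGGTCA or its reverse complement TGACCT, on either strand. The windows searched were the 250 bases before each start site (build GRCm38.p6), which the sequence table gave for 34 of the 39 members. The half-site was in 7 of 54 member windows (13.0%), beside 14.0% of all 32851 windows. The Rxra stretch lies at chr2:27709175-27709279 on the plus strand and holds 2 matches, 87 and 48 bases before the start. The Rxrg stretch lies at chr1:167618147-167618212 on the plus strand with 1 match, 88 bases before the start. Capitals mark the matches, which are letters in these windows and not sites shown to be bound.
Rxra: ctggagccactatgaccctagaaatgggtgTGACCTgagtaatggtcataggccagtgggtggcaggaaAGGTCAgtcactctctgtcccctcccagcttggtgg
Rxrg: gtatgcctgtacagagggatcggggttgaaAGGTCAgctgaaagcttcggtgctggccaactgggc

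Among the lipid-sensing receptors, Ppara was measured on all arrays. Ppara encodes the fatty acid receptor PPAR alpha, a regulator of fatty acid oxidation, and read 200.1, 139.7 and 238.8 in wild type, against 223.6, 197 and 181.8 in the knockout. The knockout values lay inside the wild-type range, with a fold of 1.06 (95% interval 0.782 to 1.44; adjusted p = 0.984). Ppard read 2.1 to 17 over the 6 arrays and Pparg, the adipocyte receptor, 9.3 to 18.3, both under the filter. The summed level of the 6 adipocyte markers on the array ran from 467.7 to 772.4 in wild type and from 457 to 507.2 in the knockout, with Cidec and Retn not above the median.

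Nr1h3 encodes LXR alpha, an oxysterol receptor that drives cholesterol efflux genes. It read 77.5, 6 and 95 in wild type, against 71.7, 45.4 and 62.5 in the knockout. Wild-type replicate 2 was below the floor, whereas the other 2 wild-type arrays were above all knockout arrays. The log2 difference was 0.61 ± 0.80 with all arrays (adjusted p = 0.969) and -0.54 without wild-type replicate 2, so its direction rests on that array. LXR alpha is also a macrophage gene, and 4 of 7 macrophage markers were above the median, with a summed level of 465.9 to 683.5 in wild type and 487.2 to 554.5 in the knockout. Their part in the reading was not tested. Vdr, Rara and Rarg, receptors of vitamin D and retinoic acid, read at most 20.6, 5.6 and 14.4 on any array.

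The orphan receptor with the smallest unadjusted p was Nr2f2, also called COUP-TFII, known for its role in venous endothelium, mesenchyme and muscle progenitors. It read 94, 92.4 and 84.3 in wild type, against 81.2, 56.9 and 55.1 in the knockout. Every knockout array was below every wild-type array, knockout replicate 1 only just. The means were 90.2 ± 5.20 and 64.4 ± 14.6 (SD, n = 3 each), a fold of 0.703 (95% interval 0.523 to 0.946; limma unadjusted p = 0.0249, adjusted p = 0.923). The difference of -0.51 on the log2 scale was -0.41 over the 4 arrays of the larger title prefix and -0.70 between the replicate 2 arrays. Since the groups were separated, leaving out an array could not turn its sign. With 1 array left out its size ran from -0.69 to -0.41. The unadjusted limma p then ran from 0.00459 (without knockout replicate 1) to 0.087 (without knockout replicate 3). The probe set is of the class marked r, whose probes were picked under relaxed rules, and the other Nr2f2 probe set read 0.3 to 3.2, below the floor. In tissue RNA, fewer cells of a type and less RNA per cell cannot be told apart. All 6 endothelial markers were above the median, and their summed level was 761.9 to 813.3 in wild type and 714.9 to 780.6 in the knockout, ranges that overlapped, with 5 of the 6 lower and 1 higher in the knockout. The part of endothelial content in the Nr2f2 reading was not tested.

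Of the other Nr2 genes none was called. Nr2f6, a COUP-TF relative, read 112.8, 111.5 and 114.8 in wild type, against 147.7, 103.5 and 127.5 in the knockout. Its wild-type arrays were tightly grouped inside the knockout range (0.14 ± 0.16). The log2 difference was 0.023 without knockout replicate 1 and 0.28 without knockout replicate 2, so its size rests on single knockout arrays. Nr2c1, the testicular receptor TR2, read 50.8, 53.2 and 44.5 against 52.6 on each knockout array (0.09 ± 0.20). Nr2f1, or COUP-TFI, read 1.5 to 12.3, mostly under the floor, so no level is given for it. Rora, an orphan receptor of the circadian system, read 64.3, 63 and 92.7 against 83, 46.7 and 67.8 (-0.17 ± 0.25), and its further probe set lay below the filter.

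Nr4a1, or Nur77, is an immediate early gene induced in muscle by contraction and adrenergic signals. It read 411, 219.7 and 243.2 in wild type, against 219.2, 196.7 and 218.7 in the knockout. The groups were separated, but replicate 2 of wild type was only just above the highest knockout array, and wild-type replicate 1 stood far above the other 5. The fold was 0.754 (95% interval 0.538 to 1.06; unadjusted p = 0.0926, adjusted p = 0.937). Without wild-type replicate 1 the log2 difference went from -0.41 to -0.13, and it was -0.53 over the 4 arrays of the larger title prefix and -0.16 between the replicate 2 arrays. The same array also read highest for Nr4a2 (Nurr1), at 59.4 and 33.5 on the 2 Nr4a2 probe sets, where the other arrays read 14.6 to 44.9 and 9.3 to 18.1. On that array the summed level of the 2 blood markers on the array was 4666.6, against 1704.2 to 2327.7 on the other 5. The part of blood RNA in these readings was not tested.

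The Nr4a1 promoter is shown because the gene is a known target of cyclic AMP signalling through half-sites of the form CGTCA. The window chr15:101266596-101266845 (plus strand, GRCm38.p6) holds 4 matches to CGTCA or its reverse complement TGACG, marked in capitals, from 233 to 40 bases before the start. At least 1 match was found in 11 of 54 member windows (20.4%), among the tested genes also those of Nr2c1, Ppara, Ppargc1a and Rxrb, beside 17.8% of all windows.
Nr4a1: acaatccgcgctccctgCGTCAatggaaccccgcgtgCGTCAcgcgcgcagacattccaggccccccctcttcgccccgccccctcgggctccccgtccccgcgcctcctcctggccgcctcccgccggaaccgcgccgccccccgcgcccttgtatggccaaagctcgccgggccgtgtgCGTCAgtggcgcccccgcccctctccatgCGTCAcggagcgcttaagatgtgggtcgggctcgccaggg

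Nr5a1, steroidogenic factor 1 of adrenal and gonad, had 5 probe sets that disagreed by far. The brightest read 627.8, 754.7 and 615.4 in wild type, against 742.6, 652.3 and 745.8 in the knockout (0.10 ± 0.12), with overlapping groups. The next brightest pair, designed on another sequence record, read 16.9 to 62.3 and differed by 0.12 ± 0.25 and -0.30 ± 0.44. Another read 18.5 to 23.4 in wild type and 3.1 to 15.6 in the knockout, under the filter, and the dimmest read 0.9 to 3. Whether the brightest probe set measures Nr5a1 transcript could not be checked, since no probe sequences were used here. The place of Nr5a1 among the 11 receptors above the median did not rest on that probe set alone. One of the next brightest pair, at 45.6, 60.4 and 43.6 in wild type, was also above the median on all 3 arrays. Its place among the 8 above the 70th percentile did rest on the brightest. Nr5a1 fell out of the count above the median when all probe sets of a gene were required, as did Rora and Nr2f2, leaving 8 receptors. Nr6a1, germ cell nuclear factor, read 7.3 to 15.3.

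Among coregulators, Ncoa1, Nrip1 and Crebbp were above the array median on all 3 wild-type arrays, Ncoa3 and Ppargc1a on 2, and Ncoa2 on none. Of the 5 tested, the p160 coactivators Ncoa1 and Ncoa3 were lower and the other 3 higher, none past the adjusted threshold, with a median log2 difference of 0.09, which became -0.23 without wild-type replicate 2. None of the 5 was separated between the groups. Ncoa1, or SRC-1, a coactivator of steroid and thyroid hormone receptors, read 89.8, 56.2 and 85.8 in wild type, against 62.2, 54.2 and 52.8 in the knockout. Wild-type replicate 2 lay inside the knockout range, and the other 2 wild-type arrays were above it. The fold was 0.744 (95% interval 0.529 to 1.05; unadjusted p = 0.081, adjusted p = 0.926). The log2 difference was -0.62 over the 4 arrays of the larger title prefix (unadjusted p = 0.0147, adjusted p = 0.479) and -0.052 between the replicate 2 arrays, beside -0.43 with all arrays. Its adjusted p ran from 0.479 to 0.9993 over the alternatives.

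**Figure D3:**
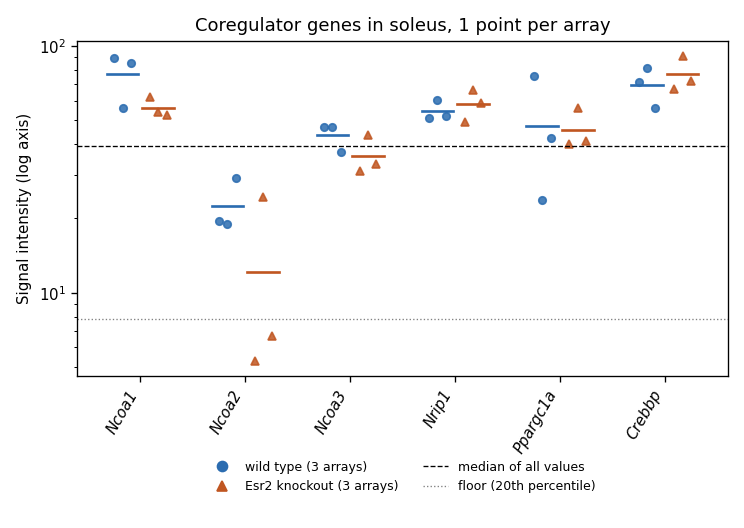
Signal intensity (log axis) of the 6 coregulator genes on each array, circles for wild type, triangles for the Esr2 knockout, short bars for group means (n = 3 each), dashed and dotted lines at 39.4 and 7.8. For Ncoa1 the wild-type replicate 2 circle, at 56.2, falls among the triangles, and for Ncoa2 most readings lie between the lines.

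Ncoa3, or SRC-3, read 46.8, 47.1 and 37.3 in wild type, against 31.3, 43.5 and 33.2 in the knockout. Replicate 3 of wild type and replicate 2 of the knockout crossed over, and the difference was -0.29 ± 0.27. Ncoa2, or SRC-2, read 19.5, 19 and 29.1 against 5.3, 24.4 and 6.7 and was under the filter on every array, so it was not tested. Its knockout replicates 1 and 3 were below the floor, and knockout replicate 2 was inside the wild-type range.

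Nrip1, or RIP140, which represses oxidative genes in muscle and is itself an estrogen target in other tissues, read 51.1, 60.3 and 52.1 in wild type, against 49.1, 66.7 and 58.9 in the knockout. The groups overlapped at a fold of 1.06 (95% interval 0.774 to 1.46). Ppargc1a, the PGC-1 alpha coactivator of oxidative muscle, read 75.9, 23.7 and 42.6 against 40.2, 56 and 41.1. Its wild-type arrays spanned the whole knockout range. The log2 difference of 0.09 ± 0.40 turned to -0.33 without wild-type replicate 2 and to -0.48 over the 4 arrays of the larger title prefix. Crebbp, the acetyltransferase CBP, read 71.6, 81.3 and 56.3 against 67.2, 91.4 and 72.3 (0.15 ± 0.20).

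Further receptors and coregulators outside the group were read from lists. Of 17 further receptors 11 were on the array and 3 passed the filter, with 0 called. Nr1d1, the heme receptor REV-ERB alpha of the circadian clock, read 514.4, 340.3 and 520.6 in wild type, against 456.2, 351.6 and 515 in the knockout, lowest on replicate 2 in both groups (-0.05 ± 0.20). Nr1d2, its relative REV-ERB beta, differed by 0.0071 ± 0.16. Nr1i3, the constitutive androstane receptor, differed by 0.24 ± 0.20 on its brightest probe set, which is also of the class marked r. A further Nr1i3 probe set gave 0.08 ± 0.21, and another, at 25.1 to 44.1, did not pass the filter.

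Of 40 further coregulators 29 were on the array and 21 genes were tested, 10 higher and 11 lower, with a median log2 difference of -0.0024. At the adjusted threshold 0 passed, and at an unadjusted p under 0.05 there were 2 of 21, beside 5.24% of all probe sets tested, so this count is not a result about the list. Prmt1, an arginine methyltransferase that acts as a receptor coactivator, read 298.9, 306.6 and 297.9 in wild type, against 352.9, 376.2 and 388.5 in the knockout (0.31 ± 0.11; unadjusted p = 0.0195, adjusted p = 0.923), with separated groups. Tob1, an antiproliferative factor, read 1060.6, 1075.9 and 984.8 against 679.2, 785.7 and 990.6 (-0.36 ± 0.14; unadjusted p = 0.0281, adjusted p = 0.923). Knockout replicate 3 lay inside the wild-type range for Tob1. The RNA helicases Ddx5 and Ddx17, which coactivate steroid receptors, differed by -0.43 ± 0.22 and -0.35 ± 0.21. A further Ddx17 probe set gave -0.06 ± 0.20.

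Of 18 tested genes that supply ligands or hold steroid receptors in a ligand-ready state, 14 were lower, beside 52.5% of all genes tested. Their median log2 difference was -0.14 beside -0.01 over all genes tested, with 0 called. The count of lower genes was not tested. Bag1, a cochaperone of Hsp70, read 299.7, 265.5 and 336.1 in wild type, against 268.5, 199 and 226.8 in the knockout (-0.38 ± 0.15; unadjusted p = 0.0318, adjusted p = 0.923), with 1 knockout array inside the wild-type range. Hsd17b10, a mitochondrial hydroxysteroid dehydrogenase, read 311.4, 306.2 and 303.3 against 277.8, 259.6 and 263, without overlap (-0.20 ± 0.11). The chaperone Hspa8 stood at -0.23 ± 0.12 and the cyclophilin Ppid, which binds Hsp90, at -0.32 ± 0.18.

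Target genes of the receptors were also listed, and in each of the 6 target lists 0 genes passed the adjusted threshold. Over all genes tested 52.5% were lower, and the counts of higher and lower genes in these lists were not tested. Of 18 PPAR and fatty acid targets 12 were lower (median -0.03), with the lipase inhibitor Angptl4 at -0.60 ± 0.27 on its brighter probe set and the fatty acid binding protein Fabp3 at -0.15 ± 0.09. The cytochrome P450 gene Cyp4b1 stood at -0.23 ± 0.16 and the lipid droplet coat gene Plin2 at 0.22 ± 0.18, both with overlapping groups. Of 15 ERR and PGC-1 targets, which include Esrra itself, 10 were higher (median 0.09). In that list the muscle cytochrome oxidase subunit Cox6a2 read 5723.5, 6562.1 and 6487.9 in wild type, against 7192.4, 7565.7 and 7859.7 in the knockout (unadjusted p = 0.00792, adjusted p = 0.923). The mitochondrial creatine kinase Ckmt2 stood at 0.18 ± 0.07 on its brighter probe set and at 0.01 ± 0.13 on a further one. The complex III subunit Uqcrc2 stood at 0.17 ± 0.10. Cytochrome c, Cycs, went the other way at -0.42 ± 0.16, so the list did not move as one.

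Thyroid hormone targets had 9 of 14 genes higher (median 0.07), where 52.5% of all genes tested were lower. The list was not split by whether the hormone raises or lowers a gene, so this count gives no direction of hormone action. The type IIb myosin heavy chain Myh4 read 1610, 3670.9 and 499.4 against 211, 790.7 and 73.8 (-2.64 ± 0.86; adjusted p = 0.923), with a knockout array inside the wild-type range. A further Myh4 probe set gave -0.06 ± 0.26. For Myh7, the slow myosin heavy chain, the brighter probe set gave 0.07 ± 0.11 and a dimmer one -0.60 ± 0.19 (unadjusted p = 0.00959, adjusted p = 0.923), so its probe sets disagreed in direction. The myoglobin gene Mb and the fast fibre calcium pump Atp2a1 stood at 0.27 ± 0.09 and 0.23 ± 0.08. Genes of the slow muscle list, which holds Mb itself, summed to 61156.5 to 77977.8 in wild type and 77677 to 83049.1 in the knockout. Of the 10, 9 were higher and 1 lower, and not all are specific to slow fibres (Acta1 and Ckm). Fast fibre markers summed to 24765.4 to 29955.6 in wild type and 27159.7 to 28809 in the knockout. Of the 8 tested, 5 were higher and 3 lower. The part of fibre content in the readings of Mb, Cox6a2 and Ckmt2 was not tested.

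Corticoid targets had 11 of 15 genes lower (median -0.09), beside 52.5% of all genes tested. The phosphatase Dusp1, which is also an immediate early gene, read 990.8, 879.9 and 1296.3 in wild type, against 775.2, 776.3 and 809.7 in the knockout (-0.40 ± 0.14; unadjusted p = 0.0181, adjusted p = 0.923), without overlap. Angptl4, also listed here and given above at -0.60 ± 0.27, had the next smallest p of this list (unadjusted p = 0.052, adjusted p = 0.923). The metallothionein Mt2 stood at -0.48 ± 0.25, and the 2 probe sets of the EGF receptor inhibitor Errfi1 at -0.32 ± 0.31 and -0.38 ± 0.19. Fkbp5, a widely used marker of glucocorticoid receptor activity, read 183.7, 127 and 315.7 against 237.5, 223.5 and 127.2 (-0.04 ± 0.33) and was not separated. Fkbp5 was named after its value was seen.

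Among 11 tested targets of LXR, RXR, RAR and the vitamin D receptor, 6 were higher and 5 lower (median 0.0015), Nr1h3 itself among them. The LXR targets Abcg1 and Abca1, both cholesterol exporters, were lower at -0.72 ± 0.25 (unadjusted p = 0.0186, adjusted p = 0.923) and -0.37 ± 0.18. Abcg1 read 92.3, 106.7 and 94.9 in wild type, against 81.7, 64.8 and 39.7 in the knockout, without overlap, while Abca1 had 1 knockout array, at 78, inside the wild-type range. The desaturase Scd1 stood at -0.53 ± 0.43 and Apoe at -0.59 ± 0.37, both with wide wild-type spreads.

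Estrogen targets split evenly, 6 higher and 6 lower of 12 tested genes (median -0.01). The main probe sets of the chemokine Cxcl12 and of the IGF binding protein Igfbp4 stood at 0.22 ± 0.20 and -0.05 ± 0.16. A further Cxcl12 probe set gave -0.68 ± 0.27 (unadjusted p = 0.0309, adjusted p = 0.923) and another -0.02 ± 0.17. A further Igfbp4 probe set gave 0.24 ± 0.20, so for both genes the probe sets disagreed in direction. Efna1 stood at -0.30 ± 0.28 and the transcription factor Xbp1 at -0.10 ± 0.12, the latter with separated groups.

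**Figure D4:**
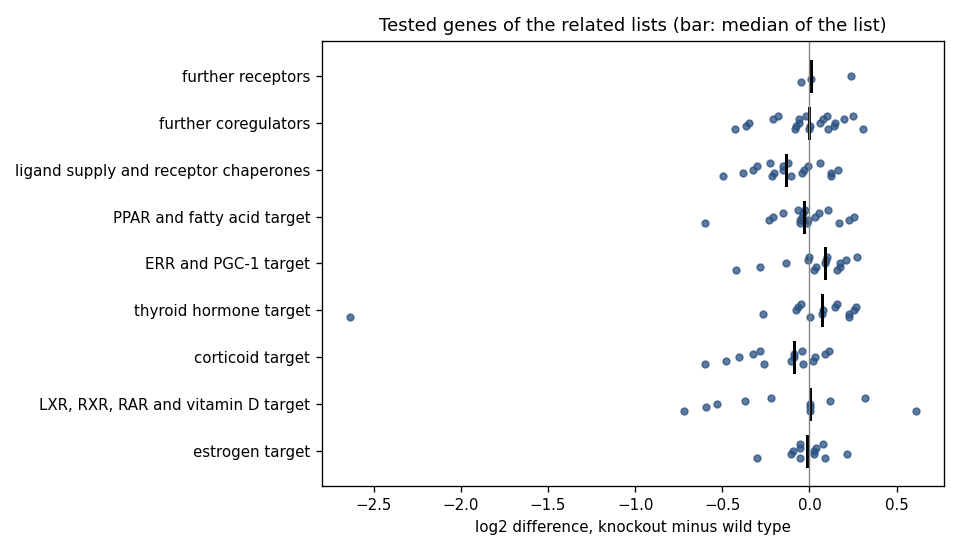
Log2 difference, knockout minus wild type, of the tested genes in 9 related lists, 1 point per gene by its brightest tested probe set (3 arrays per group), with a bar at the median of each list. The medians lie between -0.14 for ligand supply and chaperones and 0.09 for ERR and PGC-1 targets, and the far left point is Myh4 at -2.64.

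The members differed in how much a single array moved them. When arrays were left out in turn, the log2 difference of Rxrg ran from -0.84 to 0.85 and that of Nr1h3 from -0.54 to 1.26, while that of Nr2c1 ran from 0.017 to 0.15 and that of Thra from -0.092 to 0.049. The differences of Nr2f2, Nr4a1, Ncoa1, Ncoa3 and the further Rxra probe set kept their sign under each alternative that gave a value. For Nr2f2, Nr4a1 and the further Rxra probe set the groups were separated, so leaving out arrays could not turn the sign. Of the 331 values of the member genes that were tested under alternatives, 0 passed the adjusted threshold.

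**Figure D5:**
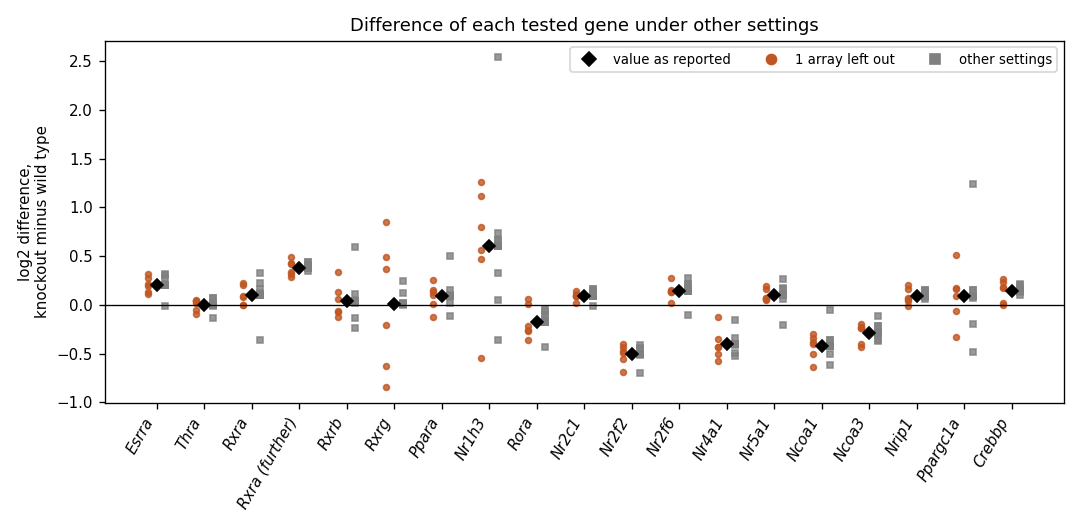
Log2 difference, knockout minus wild type, of the 18 tested genes and 1 further Rxra probe set, with a diamond for the reported value, circles for the 6 fits that leave out 1 array and squares for the other settings. Nr2f2, Nr4a1, Ncoa1 and Ncoa3 stay below 0 throughout, and the widest spread is that of Nr1h3, up to 2.54 between the replicate 2 arrays alone.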

How the data were processed

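The deposited table holds signal intensities on a linear scale for each probe set; which software computed them was not given in the sources used here. The authors' scaling was kept, under which every array had a mean of 100.1 once 2% of values at each end were dropped. Of its 12488 probe sets, 66 are controls and were left out; the array annotation gives 1 symbol to 10833, several to 396 and none to 1193. A floor was set at the 20th percentile, 7.8, before log2. The knockout was compared with wild type in limma 3.58.1 (R 4.3.3), with an intensity trend in eBayes and two-sided p-values adjusted by Benjamini-Hochberg across the 6369 probe sets above 39.4 on at least 3 of 6 arrays. A gene is represented by its probe set with the highest mean. The median standard error was 0.18, and the number of arrays limits the precision.

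Members and lists were chosen with earlier results of these data known. All members are accounted for, and up to 4 genes of each list with the smallest unadjusted p are named. Blocks, normalizations, floors, filters, variance models and left-out arrays were the alternatives. The test was checked on simulated data. Promoters are from RefSeq (GRCm38.p6). Figures used matplotlib 3.10.9 in Python 3.11.15.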

Additional observations from a re-analysis of the deposited data

How the results depend on the processing

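No receptor or coregulator passed the adjusted threshold under any alternative that tested it: 18 fits for receptors and 17 for coregulators, since a filter at the 70th percentile left no coregulator to test. At an unadjusted p under 0.05 the receptor probe sets numbered 0 to 4, beside 1 as reported, with 4 under array weights, and the coregulators 0 or 1. The median of the coregulators, 0.09 as reported, was -0.20 with array weights, -0.37 over the 4 arrays of the larger title prefix and -0.23 without wild-type replicate 2. The smallest adjusted p of a gene was 0.479. The number of receptors above the median in wild type ran from 8 to 13. Of 350 gene values under alternatives, 331 of them with a test, 32 turned sign, each from a difference that was not called. With scaling to a common median Thra stood at 0.066, and with array weights Thra stood at 0.018, Rxrb at -0.14 and Ppargc1a at -0.20. Over the 4 arrays of the larger title prefix the values were 0.066 for Thra, -0.23 for Rxrb, -0.12 for Ppara, -0.36 for Nr1h3 and -0.48 for Ppargc1a. Between the other 2 arrays, where no test was possible, they were -0.017 for Esrra, -0.36 for Rxra, -0.016 for Nr2c1, -0.11 for Nr2f6 and -0.21 for Nr5a1. With single arrays left out the values ran from -0.092 to 0.049 for Thra, -0.13 to 0.33 for Rxrb, -0.84 to 0.85 for Rxrg, -0.13 to 0.26 for Ppara, -0.54 to 1.26 for Nr1h3, -0.36 to 0.056 for Rora, -0.015 to 0.21 for Nrip1, -0.33 to 0.51 for Ppargc1a and -5.7e-05 to 0.27 for Crebbp. The cause was not tested.

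Adjacent title numbers, used as a replicate block, left 0 receptors and 0 coregulators called. Samples with adjacent numbers did not deviate together from their group means (correlations of -0.0052, 0.035 and -0.0029 across probe sets), and only the replicate 2 arrays, which also share a title prefix, correlated best with their own number. The numbers were therefore not taken to pair the samples. The 24 of 47 member probe sets that did not pass the filter were not tested, and no difference is read from them. On single arrays their signal reached 59.4, for Nr4a2, so not passing the filter is not the same as background signal.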
